A study of Mus musculus with 454 samples.

Results

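The Egr family is described here as 4 genes, Egr1, Egr2, Egr3 and Egr4, taken by symbol from the 43346 genes of a mouse brain RNA-seq count table, of which 42462 carried a symbol. EGR proteins are zinc-finger transcription factors whose genes are immediate early genes: a burst of neuronal activity or growth factor signalling switches them on within minutes, through serum response factor with its ternary complex partners and through CREB, without new protein synthesis. The proteins bind GC-rich sites in other promoters, and the corepressors NAB1 and NAB2, one of them an EGR target itself, damp their activity. In the brain Egr1 (also NGFI-A) is widely used as a marker of recent neuronal activity and of the response of forebrain neurons to cocaine. Egr2 is best known for peripheral nerve myelination and hindbrain segmentation, Egr3 for muscle spindle development and lymphocyte tolerance, and Egr4 for male germ cell maturation in mice, and all of them are also induced by activity in forebrain neurons.

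The study set mice housed in isolation beside mice housed in groups, of both sexes, after acute or chronic cocaine at 7.5 mg/kg or saline (0 mg/kg). Each of the 4 labelled regions, PFC (prefrontal cortex), Nac (nucleus accumbens), AMY (the amygdala, medial in the series title) and VTA (ventral tegmental area), held the same 16 groups: isolated females, isolated males, group-housed females and group-housed males, each after chronic cocaine, chronic saline, acute cocaine and acute saline. The 454 libraries made 64 groups of 5 to 8, with 112 libraries from PFC, 112 from Nac, 115 from AMY and 115 from VTA. The labels do not state strain, age, the isolation period or the interval between the last injection and collection. The labels do not say that the libraries of a group came from separate animals, so p-values measure the spread between these libraries, which may in part be technical. Sample titles carry numbers that fall into series (500s, 1000s, 1100s and 1200s) whose meaning is not labelled. Acute libraries of both treatments came from the 1000 and 1100 series. Chronic cocaine came from the 1000 and 1200 series and chronic saline from the 500 and 1200 series, so only the 1200 series held both chronic treatments.

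The 4 genes lie on 4 chromosomes and overlap no other annotated gene (GENCODE M21, GRCm38). Egr1 spans chr18:34859823-34864984 on the plus strand with 4484 exonic bases. Egr2 spans chr10:67535475-67542188 on the plus strand with 3398 exonic bases. Egr3 spans chr14:70077203-70082614 on the plus strand with 4406 exonic bases, and Egr4 spans chr6:85511121-85513589 on the minus strand with 2148 exonic bases.

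Total counts ran from 11.21 M to 52.34 M per library (median 21.71 M). Markers fitted the region labels, with dopamine neuron markers highest in VTA, striatal markers in Nac, cortical glutamatergic markers in PFC, and medial amygdala and hypothalamus markers in AMY. Some libraries stood apart on principal components or on a marker list, 3 in PFC, 3 in Nac, 4 in AMY and 4 in VTA, most by choroid plexus or striatal transcripts, and 3 libraries held transcripts of the other sex. Tests without them are given where they change a call of an Egr gene in a comparison over both housing conditions.

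Promoter windows of Egr2 and Egr4, taken from RefSeq (GRCm38.p6), are shown because the comparisons below turn most on Egr2. The Egr4 window is set beside it because exact matches to one of the elements searched differ between the windows. Each window is the 250 bases before a start site, 5′ to 3′ on the gene's strand, with matches to the CArG box (the element bound by serum response factor) and to the core TGACG of the cyclic AMP response element (bound by CREB), on either strand, in capitals. The Egr2 window is chr10:67537619-67537868 on the plus strand, before the start site at 67537869, and GENCODE M21 places it in an intron of longer Egr2 transcripts. The Egr4 window is chr6:85513590-85513839 on the minus strand, before the start site at 85513589.
Egr2: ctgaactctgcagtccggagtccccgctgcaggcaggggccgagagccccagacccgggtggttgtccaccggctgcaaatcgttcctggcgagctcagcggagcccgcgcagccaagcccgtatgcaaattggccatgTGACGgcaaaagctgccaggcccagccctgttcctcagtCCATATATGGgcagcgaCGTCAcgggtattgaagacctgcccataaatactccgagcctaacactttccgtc
Egr4: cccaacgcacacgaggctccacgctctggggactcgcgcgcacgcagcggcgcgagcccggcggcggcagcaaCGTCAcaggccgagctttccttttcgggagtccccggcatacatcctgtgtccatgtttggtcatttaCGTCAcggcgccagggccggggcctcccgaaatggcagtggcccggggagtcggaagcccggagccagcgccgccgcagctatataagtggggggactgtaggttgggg
The Egr2 window held 1 CArG box, starting 72 bases before the start site, and 2 TGACG cores, starting 111 and 55 bases before it, with no overlap among them. The Egr4 window held 2 TGACG cores, 177 and 109 bases before its start site, and no exact match to the CArG box. RefSeq lists 5 Egr2 windows, 4 of them with a CArG box, and 1 Egr4 window. The Egr2 windows before the start sites at 67537869, 67537870 and 67537930 overlap and hold the same CArG box. Of 32817 mouse windows of 250 bases, 1.469% held a CArG box and 17.75% held TGACG. Neither window held the full response element TGACGTCA (1.548% of all windows) or the EGR site GCGTGGGCG (0.536% of all windows), and a missing match says only that these letters are not in these bases.

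Egr transcripts were most abundant in cortex and scarcest in the ventral tegmental area. In RPKM, counts scaled to library size and exon length, Egr1 had a median of 69.3 in PFC, 36.9 in Nac, 29.6 in AMY and 4.67 in VTA. Egr3 had a median of 17.5 RPKM in PFC, 12.01 in Nac, 4.64 in AMY and 0.191 in VTA. Egr4 had a median of 13.6 RPKM in PFC, 8.11 in Nac, 4.58 in AMY and 0.240 in VTA. Egr2 was the least abundant member in every region, with a median of 4.36 RPKM in PFC, 1.60 in Nac, 0.703 in AMY and 0.0515 in VTA. Egr1 had the highest median RPKM in each region. Egr3 and Egr4 lay between, with the median of Egr3 above that of Egr4 in PFC and Nac, nearly level with it in AMY and below it in VTA, and the order between genes was not tested.

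The order of regions was tested over title numbers present in both regions of a pair, since a number carried the same sex, housing and treatment in every region, by sign-flip permutation of differences in log2 CPM (counts scaled to library size) in 72 tests. With acute and chronic libraries together or apart, PFC was above AMY and VTA, Nac was above AMY and VTA, and AMY was above VTA for all 4 genes, at p = 1e-05, the smallest the permutations can give (adjusted p = 1.06e-05), or for Egr1 between Nac and AMY in acute mice at p = 2e-05. The pairs that did not pass were all between PFC and Nac. In acute mice PFC exceeded Nac by 1.15 (Egr1), 1.498 (Egr2), 1.01 (Egr3) and 1.14 (Egr4) on the log2 scale, with PFC higher for 51, 51, 49 and 50 of 51 numbers. In chronic mice the excess of PFC over Nac was 0.28 for Egr1 (37 of 48 numbers), and neither direction passed the permutation test for Egr2 (-0.09, p = 0.283, PFC higher for 22 of 48), Egr3 (0.06, p = 0.729) or Egr4 (0.06, p = 0.354). The change of the PFC excess between chronic and acute mice was itself tested by permutation over numbers: it was -0.87 for Egr1, -1.59 for Egr2, -0.95 for Egr3 and -1.08 for Egr4 (p = 1e-05 each, adjusted p = 1.6e-05 over 24 tests).

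**Figure D1:**
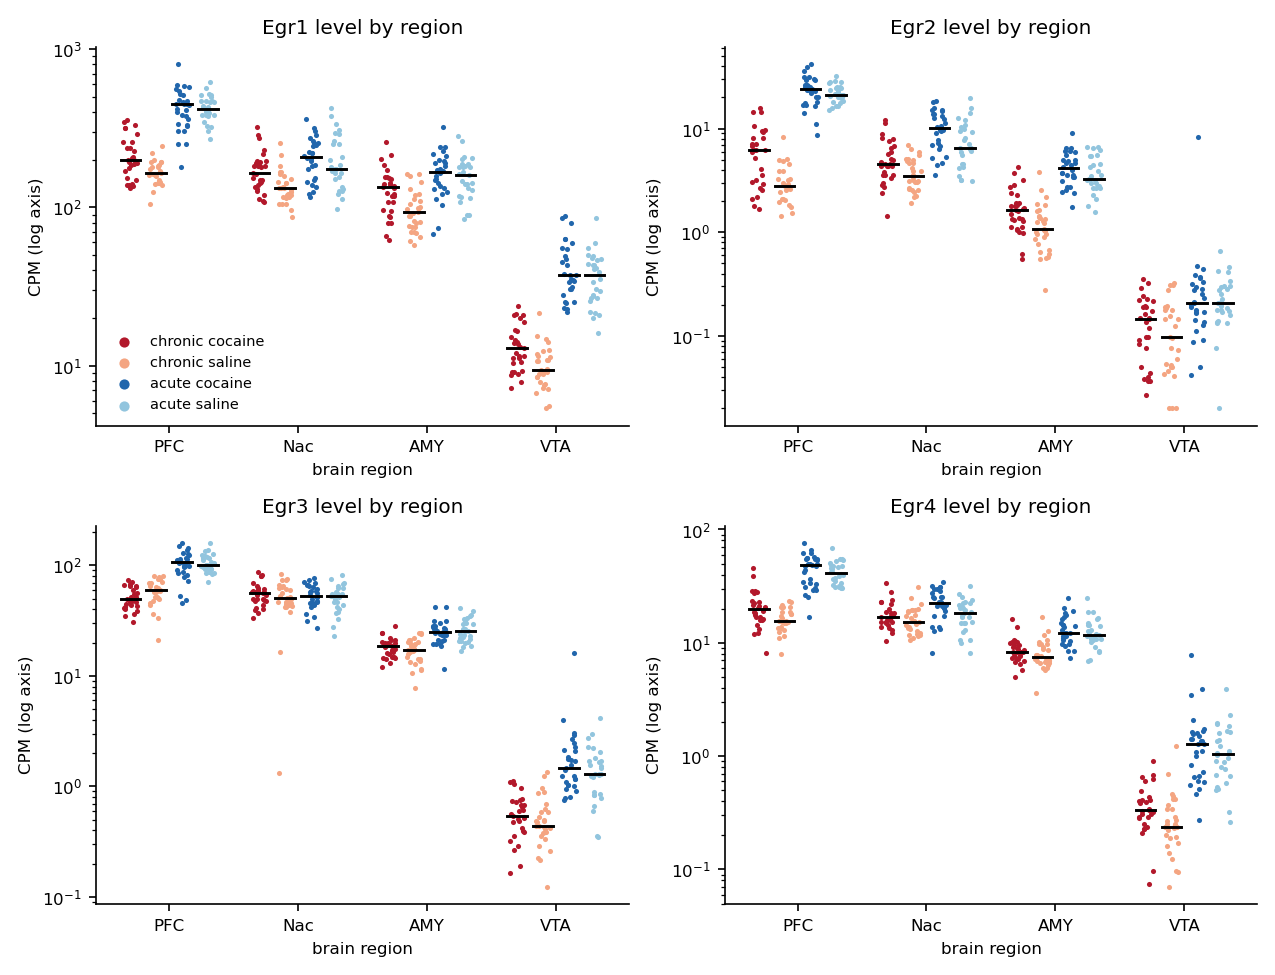
CPM (log axis) of each Egr gene in every library, by region (PFC, Nac, AMY, VTA) and by group from left to right (chronic cocaine, chronic saline, acute cocaine, acute saline); points are libraries, black lines are medians, and values below 0.02 are drawn at 0.02. Egr2 in PFC shows the widest step, with chronic medians of 6.22 (cocaine) and 2.78 CPM (saline) beside acute medians of 24.0 (cocaine) and 21.3 CPM (saline).

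The schedules were compared among saline mice alone, where every Egr gene tested was lower in chronic than in acute libraries in PFC, AMY and VTA, as were Egr1 and Egr2 in Nac. In PFC, Egr2 ran from 1.45 through a median of 2.78 to 8.33 CPM in the 26 chronic saline libraries and from 15.1 through 21.3 to 31.9 CPM in the 28 acute saline libraries. The groups did not overlap, and the chronic median was 0.131 times the acute one (log2 difference -2.78 ± 0.17 SE, edgeR adjusted p = 6.12e-26). Egr1 in PFC ran from 105 through 165 to 243 CPM in chronic saline libraries and from 270.3 through 417 to 619.9 CPM in acute saline libraries (-1.34 ± 0.10, adjusted p = 1.2e-20). Egr4 in PFC ran from 7.91 through 15.6 to 23.2 CPM in chronic saline libraries and from 30.2 through 41.1 to 68.4 CPM in acute saline libraries (-1.36 ± 0.12, adjusted p = 4.65e-17). For these 3 genes all 26 chronic saline libraries lay below every acute one. The share of all genes that separate in this way is not given here. Egr3 overlapped, with 19 of 26 chronic saline libraries below every acute one, at medians of 59.8 CPM in chronic and 100.4 CPM in acute saline libraries (-0.84 ± 0.10, adjusted p = 2.34e-11).

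In VTA, where Egr levels were low, the 3 members tested were also lower in chronic saline libraries. Egr1 had a median of 9.34 CPM (5.37 to 21.6) in 29 chronic saline libraries and 37.2 CPM (16.1 to 85.1) in 28 acute saline libraries, with 28 of 29 chronic libraries below every acute one (-1.87 ± 0.14, edgeR adjusted p = 1.19e-21). Egr4 differed by -1.93 ± 0.24 (adjusted p = 1.71e-10) at medians of 0.236 CPM in chronic and 1.04 CPM in acute saline libraries, and Egr3 by -1.47 ± 0.23 (adjusted p = 5.93e-08) at medians of 0.438 CPM in chronic and 1.30 CPM in acute saline libraries. Egr2 did not pass the filter on low counts in VTA; its medians there were 0.0968 CPM in chronic and 0.207 CPM in acute saline libraries, and it was not tested. In AMY, Egr2 was again the member with the largest difference, at medians of 1.07 CPM in 30 chronic and 3.28 CPM in 27 acute saline libraries (-1.63 ± 0.17, adjusted p = 3.64e-13), with 23 of 30 chronic libraries below every acute one. Egr1 (-0.70 ± 0.12, adjusted p = 3.19e-06), Egr3 (-0.62 ± 0.09, 8.93e-08) and Egr4 (-0.63 ± 0.11, 2.29e-06) were lower in AMY too. Nac moved least: Egr1 differed by -0.53 ± 0.12 (adjusted p = 0.000575) and Egr2 by -1.01 ± 0.18 (adjusted p = 1.23e-05), while Egr3 (0.02 ± 0.13, adjusted p = 0.926) and Egr4 (-0.13 ± 0.11, adjusted p = 0.441) did not pass.

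Thus 4 of 4 members were called lower in PFC, 4 of 4 in AMY, 3 of 3 tested in VTA and 2 of 4 in Nac. The same comparison called, in either direction, 23.3% of all genes tested in PFC, 20.4% in AMY, 43.6% in VTA and 20.9% in Nac, so a call alone is common here. Among cocaine libraries the 1000 series held both schedules. Its PFC medians were 446 (Egr1), 25.5 (Egr2), 105.9 (Egr3) and 49.1 CPM (Egr4) in acute libraries. In chronic libraries they were 204, 6.22, 48.5 and 21.3 CPM in the same order. Egr3 in Nac was nearly level, at 57.1 CPM in acute and 57.5 CPM in chronic libraries. These differences were not tested. The acute and chronic cocaine libraries of this series carried separate ranges of title numbers, so schedule and title number cannot be told apart there. Among saline libraries schedule and number series cannot be told apart. Acute saline came from the 1000 and 1100 series and chronic saline from the 500 and 1200 series. In bulk tissue, fewer cells of a type and less RNA per cell cannot be told apart either. Marker lists moved in the same comparison. In VTA, 7 of 8 dopamine neuron markers were higher in chronic saline libraries, where the list summed to 2674 to 8483 CPM (median 5565) against 1344 to 5307 CPM (median 3356) in acute saline libraries, and 6 of 6 microglial markers were higher. Lower in VTA, like the Egr genes, were 4 of 8 cortical glutamatergic markers, which summed to 128 to 199 CPM (median 167) in chronic and 153 to 247 CPM (median 179) in acute saline libraries, and also 5 of 10 choroid plexus, 3 of 10 striatal, 3 of 7 medial amygdala and hypothalamus and 2 of 6 astrocyte markers. In AMY, 5 of 8 medial amygdala and hypothalamus and 6 of 10 choroid plexus markers were lower, and 5 endothelial, 3 astrocyte and 3 microglial markers of 6 each were higher. In Nac, 3 of 6 astrocyte and 1 of 8 cortical glutamatergic markers were lower, and 5 of 10 striatal and 3 of 6 microglial markers were higher. In PFC, 1 of 8 cortical glutamatergic, 1 of 6 microglial, 1 of 6 dopamine neuron and 1 of 5 medial amygdala and hypothalamus markers were lower, and 1 marker each of the astrocyte, endothelial, choroid plexus, dopamine neuron and medial amygdala lists was higher. Their part in the Egr differences was not tested.

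**Figure D2:**
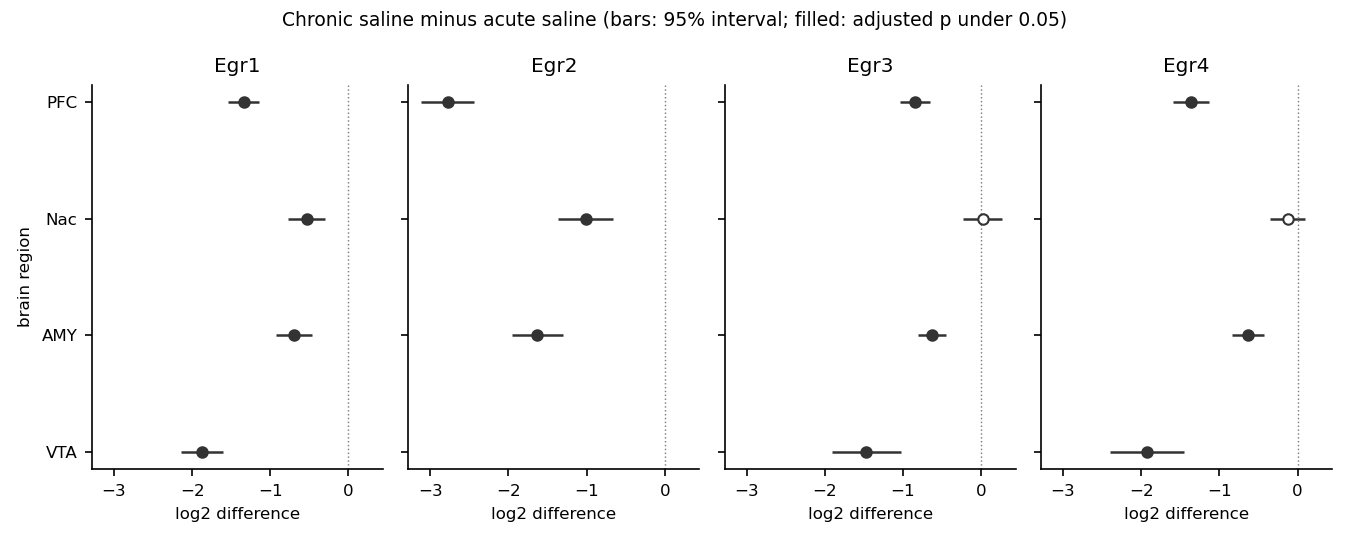
Log2 difference of chronic saline minus acute saline libraries for each Egr gene by region, with 95% intervals from the edgeR fit; filled points have an adjusted p under 0.05. Every interval lies below 0 except those of Egr3 and Egr4 in Nac, and the lowest point is Egr2 in PFC at -2.78.

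Other immediate early genes, from a list of 33 without the Egr genes, were lower in chronic saline libraries as well: 27 in PFC, 21 in AMY, 19 in VTA and 18 in Nac, and none was called higher. Their median log2 differences were -0.63 in PFC, -0.33 in AMY, -0.35 in VTA and -0.25 in Nac, where the medians over all genes tested lay between 0.0024 and 0.0124. In PFC the lowest p belonged to Fosb (-1.72 ± 0.10, edgeR adjusted p = 3.47e-28), an AP-1 subunit, followed by the orphan nuclear receptor Nr4a3 (-1.09 ± 0.09) and the AP-1 subunit Fosl2 (-1.001 ± 0.08). In VTA, Fos fell by 1.89 and Fosb by 2.24 on the log2 scale in chronic saline libraries, and in AMY Nr4a3 fell by 1.72. Of 15 genes that act upstream of the Egr genes or with EGR proteins, 9 were lower in PFC, 8 in AMY, 7 in VTA and 3 in Nac, and 1 was higher in VTA and 1 in Nac. Over all genes tested, 23.3% were called in PFC, 20.4% in AMY, 43.6% in VTA and 20.9% in Nac, so the VTA and Nac counts lie near the share over all genes. The corepressor Nab2 was lower in PFC (-0.57 ± 0.05, adjusted p = 1.83e-16), VTA (-0.39 ± 0.08, adjusted p = 2.5e-05) and AMY (-0.33 ± 0.05, adjusted p = 3.98e-07). Srf, the serum response factor gene, was lower in PFC (-0.31 ± 0.04), and Creb1 was lower in VTA (-0.29 ± 0.04), Nac (-0.19 ± 0.04), AMY (-0.18 ± 0.03) and PFC (-0.14 ± 0.04). Of 13 genes reported as EGR targets elsewhere, 3 were lower in PFC, 3 in AMY, 5 in VTA and 4 in Nac, with 1 higher in PFC and 3 higher in VTA, which is near those shares in PFC, AMY and Nac. Arc, a synaptic immediate early gene that counts in both lists, was lower in PFC (-1.36 ± 0.17, adjusted p = 1.96e-10).

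Chronic cocaine was set against chronic saline in each region. In PFC, 3 of 4 members were called higher after chronic cocaine, but none was with the number series as a term (adjusted p = 1 each), and only the 1200 series held both chronic treatments. Egr2 ran from 1.67 through a median of 6.22 to 15.9 CPM in 28 cocaine libraries and from 1.45 through 2.78 to 8.33 CPM in 26 saline libraries. Of the cocaine libraries, 22 of 28 lay above the saline median and 7 above every saline library, so the groups overlapped at the low end (1.01 ± 0.17 SE on the log2 scale, edgeR adjusted p = 0.00122). Egr1 had a median of 199 CPM (133 to 355) after chronic cocaine and 165 CPM (105 to 243) after chronic saline, and 21 of 28 cocaine libraries exceeded the saline median (0.38 ± 0.10, adjusted p = 0.0129). Egr4 had a median of 19.7 CPM (8.08 to 45.4) after chronic cocaine and 15.6 CPM (7.91 to 23.2) after chronic saline, with 23 of 28 above the saline median (0.36 ± 0.12, adjusted p = 0.0404). This call was lost with limma voom (adjusted p = 0.1), without the filter on low counts (0.0824), without the 3 PFC libraries that stood apart (0.0686) and with chronic libraries alone in the fit (0.0734), besides the series term. Egr3 pointed the other way without passing, at medians of 49.4 CPM after chronic cocaine and 59.8 CPM after chronic saline (-0.18 ± 0.10, adjusted p = 0.245).

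In the other regions no member was called after chronic cocaine, though every estimate was positive in this fit. With the number series as a term, Egr3 (-0.243) and Egr4 (-0.068) in AMY and Egr3 in Nac (-0.088) were negative. The other estimates in these regions stayed positive. In AMY, Egr1 had a median of 134 CPM after chronic cocaine and 92.9 CPM after chronic saline (0.42 ± 0.12, edgeR adjusted p = 0.172), and Egr2 had a median of 1.64 CPM after cocaine and 1.07 CPM after saline (0.51 ± 0.17, adjusted p = 0.354); for each, 24 of 30 cocaine libraries lay above the saline median. In Nac, Egr1 had a median of 166 CPM after chronic cocaine and 133 CPM after chronic saline (0.32 ± 0.12, adjusted p = 0.144) and Egr2 4.55 CPM after cocaine and 3.50 CPM after saline (0.44 ± 0.18, adjusted p = 0.171), and 23 of 29 cocaine libraries exceeded the saline median for each. In VTA, Egr1 had a median of 12.8 CPM after chronic cocaine and 9.34 CPM after chronic saline (0.45 ± 0.14, adjusted p = 0.355), with 22 of 29 above the saline median. Egr3 estimates were 0.10 (AMY), 0.12 (Nac) and 0.18 (VTA), and Egr4 estimates were 0.09, 0.14 and 0.39 ± 0.27. In all, edgeR called 3 of 4 members in PFC, 0 of 4 in AMY, 0 of 3 in VTA and 0 of 4 in Nac, where it called 7.12% of all genes tested in PFC, 0.0518% in AMY, 0.0817% in VTA and 0.151% in Nac. The genes with an unadjusted p under 0.05 numbered 3997 in PFC, 1161 in AMY, 975 in VTA and 3313 in Nac.

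The PFC calls were not kept with the number series as a term or within the 1200 series alone, which held fewer libraries. The number series was used as a term in the fit, and within the 1200 series, the only one with both chronic treatments, the comparison was made apart. With the series term, Egr2 in PFC was at 0.90 and not called (adjusted p = 1), and Egr1 (0.21) and Egr4 (0.17) were not called (adjusted p = 1 each); over all genes 1 was called in PFC with the term, against 668 higher and 542 lower without it. Within the 1200 series, Egr2 in PFC had a median of 5.72 CPM (2.905 to 9.61) in 8 cocaine libraries and 2.87 CPM (1.45 to 5.08) in 16 saline libraries, and all 8 cocaine libraries exceeded the saline median and 5 exceeded every saline library (1.01 ± 0.22, edgeR adjusted p = 0.614). In Nac, Egr2 was 5.31 CPM after cocaine and 3.27 CPM after saline by median, and all 8 cocaine libraries exceeded the saline median (0.59 ± 0.17, adjusted p = 1), Egr1 differed by 0.38 ± 0.10 (adjusted p = 0.722) and Egr4 by 0.29 ± 0.12 (adjusted p = 1). Egr1 in PFC differed by 0.24 ± 0.12 and in VTA by 0.42 ± 0.15 (adjusted p = 1 each). Within this series edgeR called 0 members in any region, where it called 0.00573% of genes in PFC, 0.00572% in AMY, 0.00576% in VTA and 0.0169% in Nac, and between 319 and 1163 genes a region had an unadjusted p under 0.05.

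Among chronic cocaine libraries of the 1000 series, the PFC values split by title number, a division chosen after the values were seen and so given as a description with no test. Fits without each block are not reported, because a division chosen from the values fixes the direction in which they move the estimates. Both blocks held all 4 combinations of sex and housing. Egr2 ran from 5.89 through 9.29 to 15.9 CPM in the 11 libraries of an earlier-numbered block (titles P1060 to P1077) and from 1.67 through 2.53 to 7.03 CPM in the 9 of a later-numbered block (P1084 to P1097), while the saline medians were 2.73 CPM (500 series) and 2.87 CPM (1200 series). The earlier-numbered block thus lay above all saline libraries but 1, and the later-numbered one among them. Egr1 medians were 290.1 CPM in the earlier-numbered block, 147.9 CPM in the later-numbered block and 196.7 CPM in 1200-series cocaine libraries, beside 173.4 CPM in 500-series and 162.2 CPM in 1200-series saline libraries. Egr4 medians were 27.6, 17.6 and 16.9 CPM in the same 3 cocaine sets and 16.7 and 15.4 CPM in the 2 saline sets. Egr3 medians did not follow, at 46.8, 50.2 and 50.0 CPM in the cocaine sets and 70.3 and 57.7 CPM in the saline sets. In other regions the blocks hold largely the same title numbers, so their values are no independent repeat. Egr1 medians in the earlier- and later-numbered blocks were 151 and 107 CPM in AMY, 196 and 139 CPM in Nac, and 16.9 and 9.15 CPM in VTA. Egr2 medians were 2.05 and 1.08 CPM in AMY and 6.85 and 3.14 CPM in Nac. In VTA, where Egr2 was near the floor, its medians were 0.144 and 0.157 CPM. What distinguishes the blocks is not labelled, and its part in the cocaine difference was not tested.

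**Figure D3:**
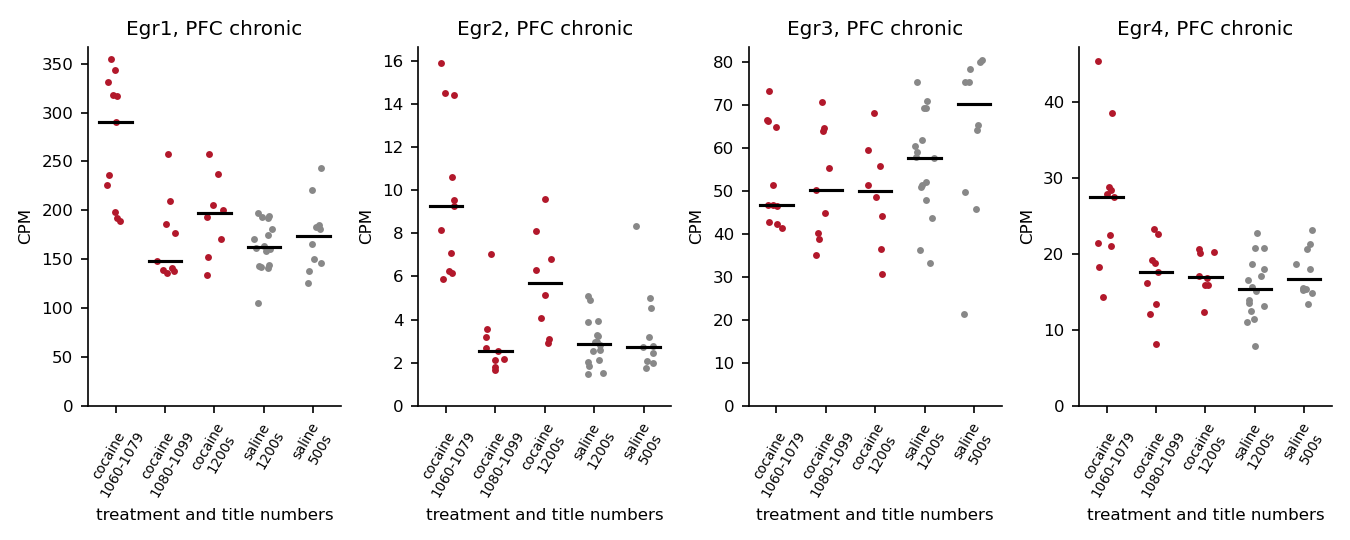
CPM of the Egr genes in PFC libraries of chronic mice, split by treatment and title number; points are libraries and black lines are medians. Cocaine libraries of the earlier-numbered block sit highest for Egr1, Egr2 and Egr4 (Egr2 median 9.29 CPM), while those of the later-numbered block (Egr2 median 2.53 CPM) sit among the saline libraries.

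Of the 33 other immediate early genes, 7 were higher and 0 lower in PFC after chronic cocaine, with a median log2 difference of 0.12 against 0.0023 over all genes tested. Those with the lowest p were Sik1 (0.50 ± 0.10, edgeR adjusted p = 0.00261), a salt-inducible kinase that restrains CREB coactivators, Nr4a2 (0.63 ± 0.13, 0.00334) and Nr4a3 (0.36 ± 0.09, 0.00778), orphan nuclear receptors, and Fosb (0.39 ± 0.10, 0.0112). Over all genes tested in PFC, 7.12% were called. The count of immediate early genes was 5 without libraries that stood apart and 0 with the series term. In AMY, Nac and VTA, edgeR called 0 of 33, at medians of 0.10, 0.09 and 0.05. Of the 15 upstream and partner genes, Nab2 was higher in PFC (0.16 ± 0.05, adjusted p = 0.0366) and Map2k1, a kinase of the ERK cascade, lower (-0.10 ± 0.03, adjusted p = 0.037), and none was called elsewhere. These are 2 of 15 beside 7.12% of all genes. Without libraries that stood apart 0 of the 15 were called in PFC, and with the series term also 0. Of the 13 reported targets, Nab2 was higher and Htr2a, a serotonin receptor (-0.45 ± 0.12, adjusted p = 0.0163), and Gabra4, a GABA-A receptor subunit (-0.14 ± 0.04, adjusted p = 0.0209), were lower in PFC, beside the same 7.12% of all genes. Without libraries that stood apart 0 of the 13 were higher and 1 was lower, and with the series term 0 were called. Markers of other cells moved in the same PFC comparison. Of 10 striatal markers, 6 were higher, with a summed level of 321 to 1840 CPM (median 390) after cocaine and 294 to 973 CPM (median 379) after saline, and 0 of 10 were called without the libraries that stood apart. In that same fit Egr2 (1.06, adjusted p = 0.000633) and Egr1 (0.39, adjusted p = 0.0223) were called and Egr4 (0.37, adjusted p = 0.0686) was not. Of other lists, 3 of 6 dopamine neuron, 2 of 9 choroid plexus and 1 of 6 astrocyte markers were higher, and 1 of 8 cortical glutamatergic and 1 of 5 medial amygdala and hypothalamus markers were lower. Nr4a2, named above among the immediate early genes, is also on the dopamine neuron list and is 1 of those 3. Without libraries that stood apart, 2 dopamine neuron markers and 0 choroid plexus or astrocyte markers were higher. The cortical glutamatergic and medial amygdala and hypothalamus lists each kept 1 lower marker. With the series term 0 markers of these lists were called. Their part in the Egr differences was not tested.

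By housing, the median of Egr2 in PFC was higher after chronic cocaine than after saline in both isolated and group-housed mice. In isolated mice Egr2 ran from 1.67 through 6.08 to 15.9 CPM in 14 cocaine libraries and from 1.53 through 2.71 to 5.005 CPM in 13 saline libraries, with 11 of 14 above the saline median and 8 above every saline library (1.10 ± 0.25, edgeR adjusted p = 0.00829). In group-housed mice it ran from 1.81 through 6.22 to 14.5 CPM in 14 cocaine libraries and from 1.45 through 3.19 to 8.33 CPM in 13 saline libraries, with 9 of 14 above the saline median (0.92 ± 0.25, adjusted p = 0.44). The threshold was passed in isolated mice, but the test of the difference between housing conditions gave 0.18 ± 0.35 (95% interval -0.50 to 0.86, adjusted p = 1). The call in isolated mice is not given here with the series term, with which no member was called over both housing conditions. The other PFC members differed by 0.37 (Egr1), -0.30 (Egr3) and 0.44 (Egr4) in isolated mice and by 0.39 (Egr1), -0.06 (Egr3) and 0.29 (Egr4) in group-housed mice, and none was called. In isolated mice, edgeR called 1 of 4 members in PFC and 0 elsewhere, where it called 4.39% of genes in PFC, 0.00575% in AMY, 0.00583% in VTA and 10.4% in Nac; up to 4781 genes a region had an unadjusted p under 0.05. In Nac this comparison called 1800 genes and no Egr gene, with estimates of 0.23 ± 0.17 for Egr1 and 0.44 ± 0.25 for Egr2. In group-housed mice edgeR called 0 members in any region, beside 0% of genes in PFC, 0.00575% in AMY, 0.0117% in VTA and 0.00579% in Nac (603 to 1088 genes a region with an unadjusted p under 0.05). For the difference between isolated and group-housed mice edgeR called 0 members and 0% of genes in each region (258 to 2332 genes with an unadjusted p under 0.05). The highest estimate was 0.52 ± 0.55 for Egr4 in VTA and the lowest -0.24 ± 0.19 for Egr3 in PFC.

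**Figure D4:**
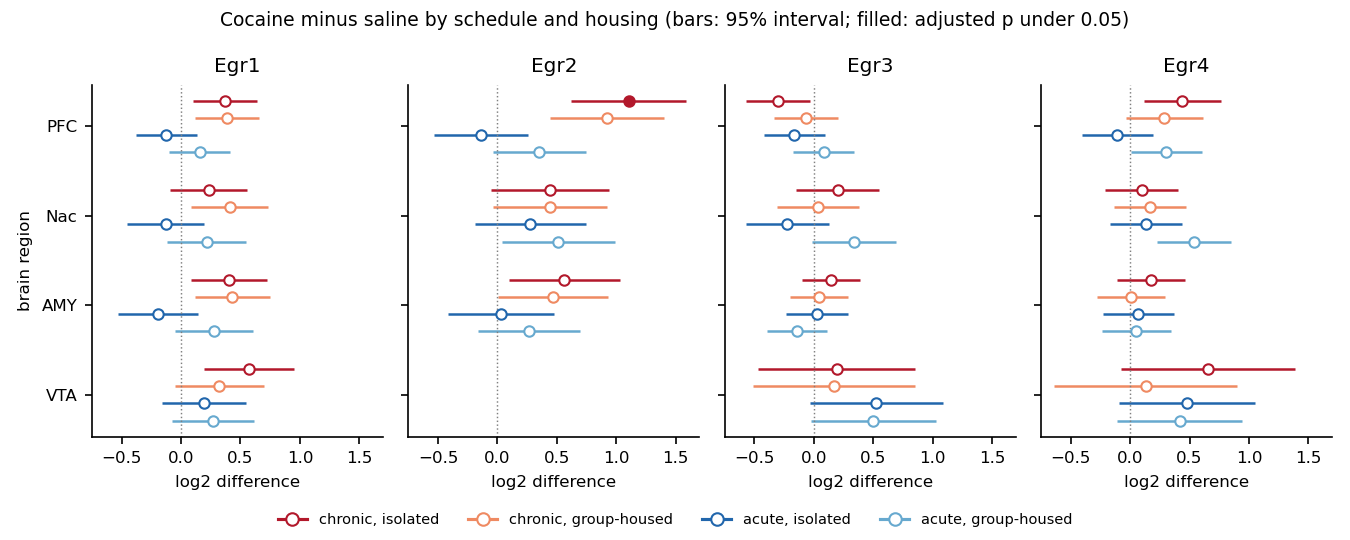
Log2 difference of cocaine minus saline for each Egr gene by region, schedule (chronic, acute) and housing (isolated, group-housed), with 95% intervals from the edgeR fit; filled points have an adjusted p under 0.05 and Egr2 in VTA was not tested. The only filled point is Egr2 in PFC of isolated mice after chronic cocaine (1.10), and the point of group-housed mice beside it lies at 0.92. These fits hold no number series term.

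After acute cocaine no Egr gene passed the test against acute saline. Over both housing conditions edgeR called 0 members in any region, beside 0.0647% of genes in PFC, 0% in AMY, 0.0467% in VTA and 0% in Nac (538 to 1802 genes a region with an unadjusted p under 0.05). In PFC, Egr1 had a median of 447 CPM (179 to 802) after acute cocaine and 417 CPM (270.3 to 619.9) after acute saline (0.02), and Egr2 24.0 CPM (8.60 to 41.8) after cocaine and 21.3 CPM (15.1 to 31.9) after saline (0.11 ± 0.14). The cocaine groups spread beyond the saline groups on both sides for these 2 genes. In AMY the 4 estimates lay between -0.05 (Egr3) and 0.15 ± 0.16 (Egr2). In Nac, Egr4 had a median of 22.3 CPM (8.14 to 34.1) after cocaine and 18.4 CPM (8.16 to 31.4) after saline, and 21 of 28 cocaine libraries exceeded the saline median (0.34 ± 0.11, adjusted p = 0.695). Egr2 in Nac had a median of 10.1 CPM after cocaine and 6.57 CPM after saline, with 22 of 28 above the saline median (0.40 ± 0.17, adjusted p = 0.877). Of the 33 other immediate early genes 2 were higher after acute cocaine in PFC, Maff (0.48, adjusted p = 0.015) and Sik1 (0.44, adjusted p = 0.0241), and 0 in AMY, Nac or VTA, at medians of 0.15, 0.06, -0.002 and 0.08.

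In VTA the acute estimates were positive, at 0.51 ± 0.20 for Egr3 (edgeR adjusted p = 0.538), 0.45 ± 0.20 for Egr4 (adjusted p = 0.687) and 0.23 ± 0.13 for Egr1 (adjusted p = 0.845), and 1 library held the highest value of each. Group-housed female acute cocaine replicate 7 in VTA had 15.97 CPM of Egr3 (4.13 at most in the other 114 VTA libraries), 7.85 CPM of Egr4 (3.95 at most in the others), 8.36 CPM of Egr2 (0.656 at most) and 88.7 CPM of Egr1 (85.8 at most). It also had 317 CPM of Slc17a7, the vesicular glutamate transporter of cortical neurons (median 7.42 and at most 124.8 CPM in the others), and a summed cortical glutamatergic level of 510.4 CPM (128 to 323 CPM in the others), with 3 of the 8 markers above every other VTA library. This library was picked after the values were seen, which fixes the direction in which leaving it out moves these estimates. Without it the estimates were 0.20 for Egr3, 0.22 for Egr4 and 0.18 for Egr1 (adjusted p = 0.964 each). The same library enters the housing, number series and sex comparisons of acute VTA below, where values without it carry the same limit.

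By housing, acute cocaine estimates had lower values in isolated than in group-housed mice for all 4 members in Nac and PFC, without a call. Egr4 in Nac had a median of 20.7 CPM after cocaine and 19.9 CPM after saline in isolated mice (0.13). In group-housed mice its median was 25.4 CPM (13.9 to 34.1) after cocaine and 17.0 CPM (8.16 to 25.3) after saline, and 13 of 14 cocaine libraries exceeded the saline median and 8 exceeded every saline library (0.54 ± 0.16, edgeR adjusted p = 0.547). Egr4 in PFC had a median of 34.2 CPM after cocaine and 41.1 CPM after saline in isolated mice (-0.11), and 55.0 CPM after cocaine and 38.04 CPM after saline in group-housed mice (0.31 ± 0.15, adjusted p = 0.477). The differences between isolated and group-housed mice were -0.40 ± 0.22 for Egr4 in Nac (adjusted p = 0.957), -0.41 ± 0.22 for Egr4 in PFC (adjusted p = 1), -0.49 ± 0.28 for Egr2 in PFC (adjusted p = 1), -0.56 ± 0.26 for Egr3 in Nac (adjusted p = 0.918) and -0.47 ± 0.24 for Egr1 in AMY (adjusted p = 0.513). None passed. In VTA the 3 differences lay between -0.08 and 0.06 with the library described above. Without it they were 0.65 ± 0.33 for Egr3 (adjusted p = 0.239), 0.53 ± 0.37 for Egr4 (adjusted p = 0.418) and 0.02 ± 0.25 for Egr1 (adjusted p = 0.98), and the estimates in group-housed mice were -0.13 for Egr3 and -0.05 for Egr4, against 0.50 and 0.42 with it. In isolated mice edgeR called 0 members, beside 0.554% of genes in VTA and 0% in each of PFC, AMY and Nac (421 to 1472 genes a region with an unadjusted p under 0.05). In group-housed mice it called 0, beside 0.0647% in PFC, 0% in AMY, 0.332% in VTA and 0.0174% in Nac (822 to 2736 genes). For the housing difference it called 0, beside 1.28% in VTA and 0% in each of PFC, AMY and Nac (437 to 3195 genes).

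Both number series of the acute mice held both treatments, and the VTA estimates had opposite signs in them. In the 1100 series Egr3 in VTA had a median of 1.69 CPM in 13 cocaine libraries and 0.871 CPM in 16 saline libraries, and 13 of 13 cocaine libraries exceeded the saline median (0.91 ± 0.39, edgeR adjusted p = 0.792). In the 1000 series it had a median of 1.29 CPM in 16 cocaine libraries and 1.61 CPM in 12 saline libraries, with 6 of 16 above the saline median (-0.15 ± 0.22, adjusted p = 0.714). Egr4 differed by 0.82 ± 0.38 in the 1100 series and -0.10 ± 0.24 in the 1000 series. Egr1 had a median of 43.1 CPM after cocaine and 27.4 CPM after saline in the 1100 series (0.57 ± 0.22), and 34.6 CPM after cocaine and 43.0 CPM after saline in the 1000 series (-0.17 ± 0.15). The difference of the cocaine effect, 1100 minus 1000 series, was 1.01 ± 0.49 for Egr3 (adjusted p = 0.268), 0.90 ± 0.47 for Egr4 (adjusted p = 0.305) and 0.69 ± 0.27 for Egr1 (adjusted p = 0.208), none called. Without the VTA library described above, the 1100-series estimates were 0.49 for Egr3, 0.48 for Egr4 and 0.49 for Egr1, and the differences between series 0.61, 0.59 and 0.63 (edgeR adjusted p from 0.28 to 0.476). In AMY the same difference was 0.67 ± 0.27 for Egr2 (adjusted p = 1), at 0.51 ± 0.22 in the 1100 series and -0.17 ± 0.17 in the 1000 series. In PFC the 4 members lay between -0.07 and 0.15 in the 1100 series and between 0.02 and 0.17 in the 1000 series. In Nac, Egr2 differed by 0.47 ± 0.19 in the 1100 series and 0.30 ± 0.29 in the 1000 series, and Egr4 by 0.22 ± 0.15 and 0.47 ± 0.18.

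For the 1100 series edgeR called 0 members, beside 0.012% of genes in PFC and 0% in each of AMY, VTA and Nac (339 to 1541 genes a region with an unadjusted p under 0.05). For the 1000 series it called 0, beside 0.0664% in PFC, 2.84% in VTA and 0% in both AMY and Nac (up to 3946 genes). This was the only fit in which Egr2 in VTA passed the filter (-0.20 ± 0.29). For the difference between the series it called 0, beside 0% of genes in each region (255 to 2989 genes).

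The cocaine effect was also compared between schedules, as chronic minus acute. Egr2 in PFC differed by 0.91 ± 0.22 (edgeR adjusted p = 0.384) and Egr1 in PFC by 0.36 ± 0.13 (adjusted p = 0.884). Egr1 in AMY differed by 0.38 ± 0.17 (adjusted p = 0.99). In all, edgeR called 0 members and 0% of genes in each region (599 to 2536 genes with an unadjusted p under 0.05). The larger chronic estimate in PFC stood on lower levels: chronic cocaine libraries had an Egr2 median of 6.22 CPM, below the lowest acute saline library (15.1 CPM).

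Sex and isolation on their own left the members without a call. In saline mice the difference of isolated minus group-housed libraries lay between -0.25 ± 0.13 (Egr1 in VTA) and 0.11 ± 0.10 (Egr3 in PFC), with 0 members and 0% of genes called by edgeR in each region (283 to 832 genes with an unadjusted p under 0.05). Between females and males on saline, Egr2 in AMY differed by 0.47 ± 0.17 (adjusted p = 0.434) and Egr4 in AMY by 0.22 ± 0.11 (adjusted p = 0.57), both higher in females. This comparison called 0 members, beside 0.1% of genes in PFC, 0.144% in AMY, 0.0992% in VTA and 0.104% in Nac (431 to 1463 genes a region with an unadjusted p under 0.05). The acute cocaine effect differed between females and males most for Egr3 in VTA (1.12 ± 0.39, adjusted p = 0.782), a comparison that includes the VTA library described above: Egr3 there ran up to 15.97 CPM in females after cocaine and to 3.96 CPM in males after cocaine. Without that library the difference was 0.50 ± 0.33 for Egr3 (adjusted p = 0.881), and 0.15 for Egr4 against 0.61 with it. For acute cocaine 0 members and 0% of genes were called in each region (at least 378 genes a region with an unadjusted p under 0.05). For chronic cocaine the sex difference was -0.96 ± 0.48 for Egr3 in VTA (adjusted p = 1) and -0.63 ± 0.34 for Egr2 in AMY (adjusted p = 1), with 0 members called beside 0.029% of genes in Nac and 0% in each of PFC, AMY and VTA (262 to 922 genes).

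Within groups the members varied together, and which pair was closest differed by region. Correlations were taken over libraries of a region after subtracting each group's mean of log2 CPM, with permutation within groups (24 relations, adjusted over them). Number series and the chronic cocaine blocks lie within groups, so differences between them enter these correlations. In Nac, Egr1 and Egr2 had r = 0.837 and rho = 0.821 over 112 libraries (permutation p = 1e-05, the smallest possible, adjusted p = 1.5e-05), and r = 0.832 without the 2 libraries farthest on Egr1. In PFC, Egr1 and Egr2 had r = 0.775 and rho = 0.749 (0.743 without the 2 farthest), and Egr1 and Egr4 had r = 0.771 and rho = 0.748 (0.729 without). In AMY the closest pair was Egr3 and Egr4 (r = 0.651, rho = 0.644, 0.608 without), and in VTA Egr1 and Egr4 (r = 0.714, rho = 0.676, 0.688 without). The lowest r were those of Egr3 in PFC and Nac, of Egr1 with Egr3 in AMY (r = 0.299, rho = 0.257, 0.262 without) and of Egr1 with Egr2 in VTA (r = 0.483, rho = 0.452, 0.449 without). Egr2 and Egr3 in PFC had r = 0.236 (permutation p = 0.0289) and rho = 0.232, with r = 0.176 without the 2 farthest. Egr3 and Egr4 in Nac had r = 0.185 (permutation p = 0.138) but rho = 0.474, and r = 0.535 without the 2 farthest, one of which, isolated female chronic saline replicate 6, had 1.33 CPM of Egr3 (16.6 to 86.6 CPM in the other Nac libraries) beside 253 CPM of Egr1. This library also had the highest summed striatal level of Nac, 9971 CPM (8507 at most in the others).

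Libraries with the same title number deviated together across regions for Egr1 and Egr2. For Egr1 in Nac and PFC, r was 0.627 and rho 0.605 over 99 numbers (0.599 without the 2 farthest), and for Egr2 r was 0.628 and rho 0.591 (0.615 without), each with an adjusted permutation p = 6e-05 over 24 relations. Between AMY and PFC r was 0.557 (rho 0.567, 0.521 without) for Egr1 and 0.506 (rho 0.492, 0.495 without) for Egr2. Egr3 had r = 0.221 (rho 0.207, 0.144 without, adjusted permutation p = 0.0272 for r and 0.0779 for rho) between Nac and PFC and r = -0.04 between AMY and PFC. Egr4 between Nac and PFC had r = 0.333 (rho 0.318, 0.372 without). The chronic cocaine blocks described above lie within groups and so enter these values.

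**Figure D5:**
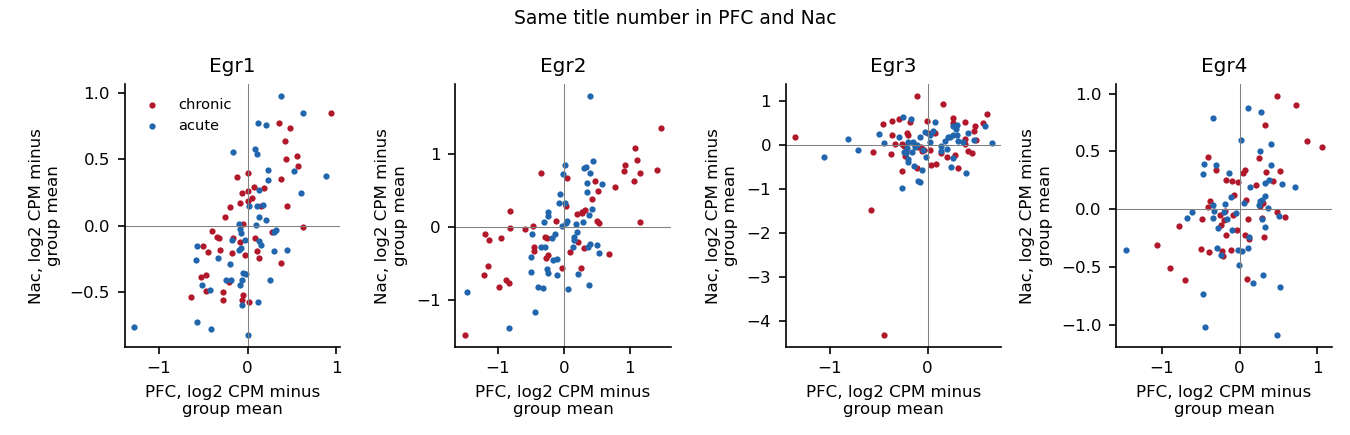
Deviation of log2 CPM from the group mean in PFC (x axis) against Nac (y axis) for each Egr gene; each point is a title number present in both regions. Egr1 and Egr2 deviated together (r = 0.627 and 0.628 over 99 numbers), Egr4 less (0.333) and Egr3 least (0.221).

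The genes whose within-group pattern was most like each member, by mean r over the 4 regions among 12755 genes, were mostly other immediate early genes. For Egr1 they were Fosb (0.753), Nr4a1 (0.694) and Fos (0.685). For Egr2 they were Nr4a1 (0.706), Junb (0.702) and Fosb (0.647), and for Egr4 Junb (0.707), Fosb (0.672) and Nab2 (0.665). Egr3 differed: its 3 were Pcdhgc5 (0.727), a clustered protocadherin whose reads can be shared with its neighbours and whose counts are uncertain, Synpo (0.725), which encodes an actin-associated protein of dendritic spines, and Gas7 (0.711), which encodes an actin-binding protein. In Nac alone r was 0.906 for Pcdhgc5, 0.641 for Synpo and 0.818 for Gas7. These values include the Nac library with 1.33 CPM of Egr3, and no ranking without it is given. Differences between blocks and number series within groups enter the correlations of all 4 regions.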

How the data were processed

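The authors deposited 1 table of raw counts per gene (Ensembl IDs) for 454 libraries; no column was left unused (0). Per the labels' protocols, libraries were stranded, made from 300 ng of poly(A)-selected RNA, pooled 21 at a time and sequenced as single reads of 50 bases. The submitters' processing notes name STAR, featureCounts, limma and GRCm38 (mm10), while versions, annotation and strand setting were not given in the sources used here. Symbols came from a table of gene names, and 0.11% of counts had none.

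Each region was fitted apart with edgeR 4.0.16 (R 4.3.3; TMM, filterByExpr, robust quasi-likelihood, means of 16 groups), with Benjamini-Hochberg adjustment over all genes tested (17391 in AMY, 17266 in Nac, 17003 in PFC, 17144 in VTA) and a threshold of 0.05; SE and 95% intervals are on the log2 scale. DESeq2 1.42.0, limma 3.58.1, other normalization (RLE), no filter, a series term and left-out libraries were alternatives. CPM and correlations used 1 TMM scale over all libraries (18627 genes, prior count 2 in logs). Permutations used 100000 resamples. Libraries stood apart at a robust z over 8 for a marker list or over 5 for any of 4 principal components (3000 most variable genes). Transcripts of the other sex were called at 5% of that sex's median. Named were the 4 members, for each the 3 genes most alike, and up to 4 genes a list with the lowest p. Members and lists were chosen with earlier results of these data known. The procedure was tested on simulated data.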

Additional observations from a re-analysis of the deposited data

Results flagged for a closer look

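In 14 of 256 checks of a gene in a group, 1 library lay far from the others (Dixon's test at 95%); chance flags about 1 in 20 groups. No explanation was weighed.

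Isolated male chronic cocaine replicate 2, which has the same title number in PFC, Nac and AMY, was high in these 3 regions: 354.7 CPM of Egr1 in PFC (133 to 200 in the other libraries of its group), 11.3 CPM of Egr2 (2.86 to 4.60) and 33.6 CPM of Egr4 (14.5 to 18.3) in Nac, and 13.9 CPM of Egr4 in AMY (7.31 to 9.54). Group-housed female chronic cocaine replicate 2 had 16.1 CPM of Egr4 in AMY (6.44 to 9.61 in its group). Both lie in the earlier-numbered block of chronic cocaine libraries.

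Group-housed female acute cocaine replicate 7 in VTA had 8.36 CPM of Egr2 (0.042 to 0.47 in its group) and 15.97 CPM of Egr3 (0.781 to 2.92). Isolated female chronic saline replicate 5 in AMY had 7.74 CPM of Egr3 (16.8 to 24.5) and 3.64 CPM of Egr4 (6.75 to 10.2).

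The remaining 5 were low in Egr3. In Nac, isolated female chronic saline replicate 6 had 1.33 CPM (41.9 to 60.2) and group-housed male chronic saline replicate 4 had 16.6 CPM (42.3 to 75.5). In AMY, group-housed male chronic cocaine replicate 6 had 11.98 CPM (15.7 to 19.1). In PFC, group-housed female chronic saline replicate 7 had 21.3 CPM (43.7 to 75.4), and in VTA, isolated female chronic cocaine replicate 4 had 0.264 CPM (0.515 to 0.77).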

How the results depend on the processing

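Of the values of the 4 genes under alternative settings, 810 kept their direction and side of the threshold, 27 changed sign and 7 lost a call; for chronic minus acute effects, 72 kept them and 3 changed sign. All 7 lost calls were chronic cocaine calls in PFC. There Egr1 and Egr2 were each called under 6 of 7 alternatives and Egr4 under 2 of 7. Every call between chronic and acute saline held under each of 5 alternatives (Egr2 in PFC, -2.85 to -2.78). The number series term was not among these 5. No paired analysis was possible because title numbers do not recur between the groups compared. Low counts limit VTA, where Egr2 could not be tested.

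In PFC after chronic cocaine, Egr1 was 0.21 and Egr2 0.896 with a number series term, neither called. Egr4 was 0.319 (limma), 0.362 (no filter), 0.372 (without libraries that stood apart), 0.174 (series term) and 0.363 (chronic libraries alone), none called. The cause was not tested.

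Genes called after chronic cocaine numbered, in AMY (9), 19 with DESeq2 and 2 with the series term. In Nac (26) they numbered 7 with limma, 99 with DESeq2, 13 unfiltered, 5 without libraries that stood apart, 1 with the series term, 16 with chronic libraries alone, 8 without other-sex transcripts and 15 without isolated female chronic saline replicate 6. In PFC (668 higher and 542 lower) they numbered 639 unfiltered, 387 without libraries that stood apart, 1 with the series term and 411 with chronic libraries alone. In VTA (14) they numbered 0 with limma and 5 with the series term. After acute cocaine, DESeq2 called 2 in Nac (0 with edgeR). In VTA (8) limma, no filter, acute libraries alone and leaving out those that stood apart gave 0, DESeq2 13, and leaving out group-housed female acute cocaine replicate 7 gave 2.

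Signs changed, all for uncalled values, as follows. With acute cocaine, Egr1 was -0.013 in PFC (limma) and -0.004 to 0.082 in AMY when each isolated male cocaine replicate was left out. With chronic cocaine and the series term, Egr3 was -0.243 and Egr4 -0.068 in AMY and Egr3 -0.088 in Nac. The acute housing difference of Egr1 in VTA was 0.016 without group-housed female acute cocaine replicate 7, and alternatives chosen after seeing the data were that library, the Nac library named above and other-sex transcripts. For the acute sex difference, Egr4 in AMY was -0.02 (limma) and -0.122 (without libraries that stood apart) and Egr2 in PFC -0.028 (limma). For the chronic housing difference, Egr2 in Nac was -0.017 (limma), -0.006 (DESeq2) and -0.013 (series term), Egr4 in Nac 0.009 and Egr1 in PFC 0.01 (without libraries that stood apart), and Egr3 in VTA -0.005 (series term). For the chronic sex difference, without libraries that stood apart, Egr1 (0.101) and Egr2 (0.062) in Nac and Egr2 in PFC (-0.078) turned, as did Egr4 in Nac with DESeq2 (-0.003) and the series term (-0.017). Among saline mice, the housing difference in Nac turned for Egr1 (-0.001, without libraries that stood apart) and Egr3 (-0.087, limma). The sex difference in PFC turned for Egr2 (-0.013, limma) and Egr4 (0.003 with DESeq2, 0.002 unfiltered, 0.005 without libraries that stood apart), and the schedule difference of Egr3 in Nac was -0.107 (limma). For chronic minus acute effects, Egr4 in AMY was -0.023 (without libraries that stood apart), and with limma Egr2 in Nac was -0.114 and Egr4 in VTA 0.174.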
